A study of Mus musculus with 21 samples.

Results

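The data describe 7 mouse genes grouped under the name germ cell RNA-binding proteins, Dazl, Ddx4, Dnd1, Nanos3, Elavl2, Tex14 and Tex101, followed through testis development. A probe set, a group of short probes read together as 1 intensity, counted as a member when its platform symbol was one of these 7. Of 45101 probe sets on the array, 11 were members, covering 6 of the 7 genes: 5 for Elavl2, 2 for Dazl and 1 each for Ddx4, Dnd1, Tex14 and Tex101. Nanos3 was not analysed here. A filter on low values, which kept 31900 probe sets in all, kept 10 of the 11. The probe set it removed was Elavl2 1433052_at.

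Testes from wild-type male CD-1 animals (CD-1 is an outbred mouse stock) were taken whole, and each RNA sample was read on its own array. The 5 gd11 arrays (gestation day 11, Theiler stage 18) held pools of 2, and 3 gd12 arrays (Theiler stage 20) held pools of 5, per the sample labels. The later stages, gd14, gd16, gd18 and pnd2 (postnatal day 2), had 3 arrays each, of Theiler stages 22, 24, 26 and 27, with no pooling named. As a whole-litter reference, 1 further array held RNA pooled from 8 entire pups at pnd 0.5, of which 4 were male and 4 female. The label of that pool names no strain. The design text instead gives triplicates of single animals from separate dams throughout. The sample labels were followed, so the spread at gd11 and gd12 is that between pools. No agent or mutation was named for any group. Replicates are named by their number in the series, which runs on over the stages. The small number of arrays limits the precision of every value.

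Germ cells regulate much of their gene expression after transcription, through proteins that bind messenger RNA and set whether it is translated, stored or degraded. Dazl binds the end of target transcripts and promotes their translation, Dnd1 and the Nanos proteins bring targets to the CCR4-NOT deadenylase, and Ddx4 is a DEAD-box RNA helicase of the germ granule. Elavl2, also called HuB, binds AU-rich elements and is made in neurons as well as germ cells. Tex14 and Tex101 are not known as RNA-binding proteins: Tex14 holds open the intercellular bridges between germ cells, and Tex101 is a GPI-anchored protein of the germ cell surface. The name of the group therefore does not describe every member.

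A set of 4 arrays stood apart or went against their labels. In gd11 replicates 16 and 17, all 12 of 12 neuronal genes were higher than in the other 3 gd11 arrays, with summed intensities of 85850 and 48860, against 4497 to 9857 in replicates 18 to 20. The gd12 replicate 13 had a summed intensity of 4080 over 5 adrenal medulla genes, against 394.5 and 647.4 in the other gd12 arrays. It also had 9255 over 10 germ cell marker genes, against 27860 and 31800. The gd12 replicate 14, labelled male, read 2616 for Xist, the RNA that silences 1 X chromosome in female cells, against 20.7 to 91.6 in the other 19 testis arrays and 1903 in the whole-litter reference. The Y-linked genes were present in it, with Eif2s3y at 1107, Kdm5d at 406 and Uty at 281, against lowest values of 593, 468 and 178 among the other 19. Counts and the main changes at gd11 and gd12 are also given without these arrays. The neuronal sums of gd11 replicates 18 to 20 were still above those at gd14, of 1086 to 1202. Sums over 4 mesonephros and duct genes were 1854 to 5132 at gd11, 704 to 2121 at gd12 and 307 to 543 at gd14. A part of such tissue in the changes from gd11 was not tested.

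A list of 10 germ cell markers, none of them a member, moved in the direction of most members up to gd16. Of its 10 genes, 8 were called higher in gd12 than in gd11 testes, 7 higher and 1 lower in gd14 than in gd12 testes, and 3 lower in gd16 than in gd14 testes. These called shares were 80%, 80% and 30%, against 20%, 15.3% and 5.95% of all probe sets. Later, 1 was called lower in gd18 than in gd16 testes and 3 in pnd2 than in gd18 testes, and 9 were lower in pnd2 than in gd14 testes. The shares there were 10%, 30% and 90%, against 3.07%, 4.9% and 26.8% of all. In pnd2 against gd11 testes 3 were higher and 5 lower (80%, against 42.4% of all). Its part in the members' changes was not tested. Its summed intensity was 3058 to 9547 at gd11, 9255 to 31800 at gd12, 48670 to 56160 at gd14, 21590 to 28690 at gd16, 9266 to 18290 at gd18 and 4481 to 6390 at pnd2. The list holds Pou5f1, Dppa3, Dppa4, Dppa5a, Mael, Tdrd1, Piwil2, Kit, Utf1 and Sox2. Sox2 averaged 6712 in gd11 replicates 16 and 17, against 240 to 441 in the other gd11 arrays. The median log2 change of the list in pnd2 over gd14 testes was -3.80. The kept member probe sets ran from -2.97 for Dnd1 to -0.69 for Tex101, with Dazl 1449502_at at -0.73. In RNA of a whole organ, fewer cells of a type and less RNA per cell cannot be told apart.

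The starts of 4 of the genes are shown because Dazl, Ddx4, Tex14 and Tex101 were strongly stage-dependent and had an entry in the promoter table used. The sequences are 250 bases before a start in the promoter table, 5′ to 3′ on the gene's strand, from RefSeq, build GRCm38.p6. That promoter table matched 6 of the 7 member symbols. The one without an entry was Dnd1, which was also stage-dependent and, like Dazl, Ddx4 and Tex14, had its highest mean at gd14. By the gene coordinates of that build, Ddx4 reaches to 112652633, so its window lies within the gene. Tex14 begins at 87405013, so the end of its window lies within the gene. Capitals mark 3 motifs, searched on both strands: CCAAT (the core bound by the factor NF-Y), TTCCCGC (a core recognised by E2F-family factors) and CACGTG (the E-box core). No marked motif overlaps another. Dazl lies at chr17:50293621-50293870 on the minus strand, Ddx4 at chr13:112652311-112652560 on the minus strand, Tex14 at chr11:87404815-87405064 on the plus strand and Tex101 at chr7:24672051-24672300 on the minus strand.
Dazl: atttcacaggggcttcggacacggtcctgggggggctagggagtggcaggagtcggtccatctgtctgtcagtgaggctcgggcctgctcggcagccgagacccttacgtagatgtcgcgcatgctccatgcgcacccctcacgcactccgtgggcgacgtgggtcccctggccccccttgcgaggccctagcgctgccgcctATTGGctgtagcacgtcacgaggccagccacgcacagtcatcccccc
Ddx4: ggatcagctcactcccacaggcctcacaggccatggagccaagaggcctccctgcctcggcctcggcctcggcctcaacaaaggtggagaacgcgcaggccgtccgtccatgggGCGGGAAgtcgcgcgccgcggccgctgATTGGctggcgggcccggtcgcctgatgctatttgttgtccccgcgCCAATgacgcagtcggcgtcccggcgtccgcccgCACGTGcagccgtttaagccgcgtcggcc
Tex14: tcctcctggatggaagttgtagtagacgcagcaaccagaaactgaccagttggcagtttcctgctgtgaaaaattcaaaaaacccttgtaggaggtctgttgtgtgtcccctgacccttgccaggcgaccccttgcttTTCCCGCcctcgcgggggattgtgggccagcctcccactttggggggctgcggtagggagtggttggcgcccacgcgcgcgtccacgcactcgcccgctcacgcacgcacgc
Tex101: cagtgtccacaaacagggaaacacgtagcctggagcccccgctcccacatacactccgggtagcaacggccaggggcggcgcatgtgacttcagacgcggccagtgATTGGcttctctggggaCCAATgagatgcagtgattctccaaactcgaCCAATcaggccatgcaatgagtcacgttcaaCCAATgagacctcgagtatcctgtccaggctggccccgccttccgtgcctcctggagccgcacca

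CCAAT occurred 4 times in the Tex101 window, 2 times in that of Ddx4, 1 time in that of Dazl and not in that of Tex14. Of all 32851 windows of this length, 33.8% held at least 1 CCAAT, 10.1% at least 2 and 0.84% at least 4. TTCCCGC occurred 1 time each in the windows of Ddx4 and Tex14, and in 3.82% of all windows. CACGTG occurred 1 time, in the window of Ddx4, and in 6.02% of all windows. The windows of Ddx4, Dazl, Tex14 and Tex101 held 31, 20, 17 and 14 CG pairs, and 5.19%, 17.9%, 23.5% and 29.4% of all windows held as many or more. The motifs were chosen after the sequences had been read. A match describes these letters and not a site in use.

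Dazl, Ddx4, Dnd1 and Tex14 were higher in gd12 than in gd11 testes, and Ddx4, Dnd1, Tex14 and Tex101 were higher in gd14 than in gd12 testes. After gd14 the members took unequal courses. Relative to their gd14 means, gd18 testes held 12.4% for Dnd1, 10.3% for Tex14, 35.9% for Ddx4 and 56.6% for Dazl. Elavl2 gave no call in any comparison in the fit of all arrays with equal weight. Changes are differences of log2(intensity + 22.4), with the standard error (SE) and adjusted p of a limma fit over all 20 testis arrays. A call is an adjusted p below 0.05 after Benjamini-Hochberg adjustment over all 31900 probe sets, and near background means a stage mean under 71.4, which is the 40th percentile over the testis arrays. This scale understates the change of dim probe sets.

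**Figure D1:**
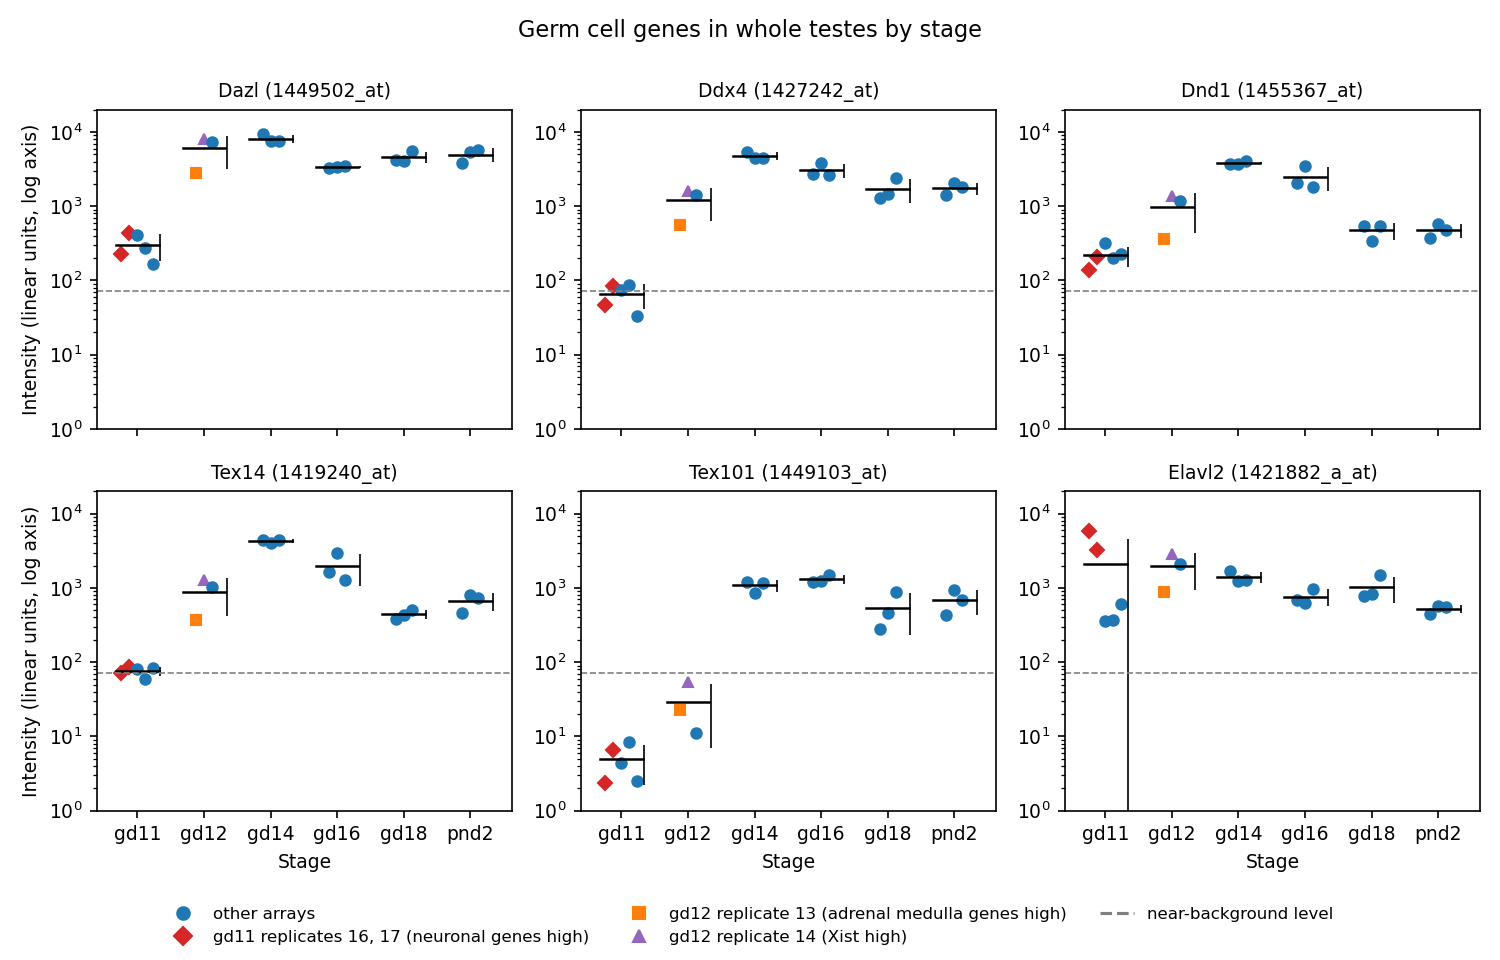
Intensity (linear units on a log axis) of 1 probe set of each measured gene in the 20 testis arrays, by stage from gd11 to pnd2. Points are arrays, short bars stage means, vertical lines 1 SD (drawn no lower than an intensity of 1), the dashed line the near-background level of 71.4, and marked symbols the 4 arrays that stood apart. Dazl, Ddx4, Dnd1 and Tex14 have their highest stage mean at gd14, Tex101 at gd16, and Elavl2 splits into 2 high and 3 low arrays at gd11.

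Dazl was read by 2 probe sets. In gd11 testes, Dazl 1449502_at read 226, 433, 411, 276 and 165 in replicates 16 to 20, and in gd12 testes 2775, 7938 and 7399 in replicates 13 to 15. In gd14 testes it read 9386, 7587 and 7521, and in gd16 testes 3266, 3429 and 3526. In gd18 testes it read 4224, 4068 and 5566, and in pnd2 testes 3789, 5422 and 5704. Every gd12 array lay above every gd11 array, and gd12 replicate 13 lay far below the other 2 gd12 arrays. The gd16 arrays lay below every gd14 and gd18 array, and above gd12 replicate 13.

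Dazl 1449502_at averaged 6037 ± 2838 in gd12 testes (SD, n = 3) and 302 ± 117 in gd11 testes (SD, n = 5), a log2 change of 4.16 (SE 0.291, limma adjusted p = 1.34e-08), or 17.9 times on this scale. The change was 4.60 without gd12 replicates 13 and 14 and 4.25 without gd11 replicates 16 and 17. Between gd14 and gd12 testes it did not pass the test (log2 change 0.57, SE 0.326, adjusted p = 0.262). Dazl fell in gd16 testes to 3407 ± 132, against 8165 ± 1058 in gd14 testes (SD, n = 3 each), a log2 change of -1.25 (SE 0.326, limma adjusted p = 0.028). This call was lost when any 1 of the 6 gd14 or gd16 arrays was left out, with adjusted p of 0.0612 to 0.122. The later changes, of 0.42 in gd18 over gd16 testes and 0.10 in pnd2 over gd18 testes, had adjusted p of 0.573 and 0.909.

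Dazl 1419542_at followed the same order of stages. It averaged 197 ± 103 at gd11 (SD, n = 5), 5143 ± 2557 at gd12, 7381 ± 1103 at gd14, 2460 ± 361 at gd16, 3444 ± 399 at gd18 and 4002 ± 1190 at pnd2 (SD, n = 3 each). Its change in gd12 over gd11 testes was 4.53 (SE 0.348, limma adjusted p = 4.75e-08), or 5.00 without gd12 replicates 13 and 14 and 4.5 without gd11 replicates 16 and 17. It was in gd16 over gd14 testes -1.58 (SE 0.389, adjusted p = 0.0205). The second call was lost without gd14 replicate 10 or 11, or any 1 of the gd16 arrays, with adjusted p of 0.0503 to 0.0983. In pnd2 testes, Dazl was at 60.9% of its gd14 mean by 1449502_at and 54.2% by 1419542_at.

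Ddx4, the helicase, was near background at gd11. In gd11 testes, Ddx4 1427242_at read 46.3, 85.0, 75.1, 87.3 and 33.0 in replicates 16 to 20, and in gd12 testes 559, 1609 and 1439 in replicates 13 to 15. The gd14 testes read 5409, 4503 and 4418, and the gd16 testes 2733, 3771 and 2668. In gd18 testes it read 1304, 1445 and 2402, and in pnd2 testes 1400, 2040.4 and 1841. The groups from gd11 to gd18 did not overlap with their neighbours, while gd18 and pnd2 did.

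Ddx4 averaged 1202 ± 564 in gd12 testes (SD, n = 3) and 65.3 ± 24.3 in gd11 testes (SD, n = 5), with a log2 change of 3.72 (SE 0.29, limma adjusted p = 5.6e-08). Against the 40th percentile of each gd11 array, it was at least 14.5-fold higher in gd12 testes. The change was 4.11 without gd12 replicates 13 and 14. In gd14 testes Ddx4 averaged 4777 ± 549, against 1202 ± 564 in gd12 testes, a log2 change of 2.10 (SE 0.324, limma adjusted p = 0.000235), or 1.63 without gd12 replicate 13. The changes of -0.65 in gd16 over gd14 testes and -0.86 in gd18 over gd16 testes did not pass the test on their own (adjusted p = 0.273 and 0.172). Over the whole span after gd14, Ddx4 fell in pnd2 testes to 1760 ± 328, against 4777 ± 549 in gd14 testes (SD, n = 3 each), a log2 change of -1.44 (SE 0.324, limma adjusted p = 0.00258).

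Dnd1, which recruits the deadenylase, was measurable from the first stage. In gd11 testes, Dnd1 1455367_at read 136, 210.2, 322, 203 and 225 in replicates 16 to 20, and in gd12 testes 359, 1372 and 1171 in replicates 13 to 15. The gd14 testes read 3720.4, 3754 and 4029.7, and the gd16 testes 2085, 3475 and 1841. In gd18 testes it read 549, 338 and 535, and in pnd2 testes 370.2, 576 and 482. The 3 gd14 arrays lay above every other array, and the 3 gd18 arrays lay below every gd16 array. The gd18 and pnd2 arrays overlapped throughout.

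Dnd1 averaged 967 ± 536 in gd12 testes (SD, n = 3) and 219 ± 66.6 in gd11 testes (SD, n = 5), a log2 change of 1.87 (SE 0.325, limma adjusted p = 0.000498). It was 2.46 without gd12 replicate 13, the lowest of that group. In gd14 testes it averaged 3835 ± 170, against 967 ± 536 in gd12 testes, a log2 change of 2.17 (SE 0.363, limma adjusted p = 0.000528), or 1.58 without gd12 replicate 13. Dnd1 fell in gd18 testes to 474 ± 118, against 2467 ± 882 in gd16 testes (SD, n = 3 each), a log2 change of -2.30 (SE 0.363, limma adjusted p = 0.00229). At pnd2 it stood at 12.4% of its gd14 mean, a log2 change of -2.97 (SE 0.363, limma adjusted p = 7.93e-06). It was still above its gd11 level, by 1.07 (SE 0.325, limma adjusted p = 0.0119), a call that was lost without pnd2 replicate 2 (0.93, adjusted p = 0.0632).

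Tex14, the intercellular bridge protein, was dim at gd11 and, like Dnd1, highest at gd14. In gd11 testes, Tex14 1419240_at read 71.6, 86.2, 79.7, 59.8 and 83.0 in replicates 16 to 20, and in gd12 testes 365, 1266 and 1036 in replicates 13 to 15. At gd14 the values were 4476, 3990.3 and 4476, and at gd16 1633, 2968 and 1283. In gd18 testes it read 386, 432 and 509.6, and in pnd2 testes 466, 799 and 739.6. The gd14 arrays were above every other array, and no stage overlapped with the next except gd18 and pnd2.

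Tex14 averaged 889 ± 469 in gd12 testes (SD, n = 3) and 76.1 ± 10.6 in gd11 testes (SD, n = 5), a log2 change of 3.05 (SE 0.298, limma adjusted p = 1.22e-06). It was 3.43 without gd12 replicates 13 and 14 and 3.08 without gd11 replicates 16 and 17. In gd14 testes it averaged 4314 ± 280.3, against 889 ± 469 in gd12 testes, a log2 change of 2.42 (SE 0.333, limma adjusted p = 7.97e-05), or 1.89 without gd12 replicate 13. It fell in gd16 testes to 1962 ± 889, against 4314 ± 280.3 in gd14 testes, a log2 change of -1.22 (SE 0.333, limma adjusted p = 0.035). That call was lost when any 1 gd14 array, or gd16 replicate 7 or 9, was left out (adjusted p of 0.0732 to 0.19). The fall to 443 ± 62.4 in gd18 testes, against 1962 ± 889 in gd16 testes, a log2 change of -2.01 (SE 0.333, limma adjusted p = 0.003), was called in each fit that left out 1 array. In pnd2 testes Tex14 was at 15.5% of its gd14 mean (log2 change -2.69, SE 0.333, limma adjusted p = 9.46e-06).

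Tex101, the surface protein, was near background at both early stages. In gd11 testes, Tex101 1449103_at read 2.36, 6.61, 4.44, 8.53 and 2.52 in replicates 16 to 20, and in gd12 testes 22.6, 54.2 and 11.2 in replicates 13 to 15. In gd14 testes it read 1219, 843 and 1181, and in gd16 testes 1213, 1224 and 1517. In gd18 testes it read 280.3, 455 and 881, and in pnd2 testes 428, 943 and 683. None of the 8 earliest arrays was above its own 40th percentile, and all of the 12 later arrays were. The gd16 mean was the highest, but the gd14 and gd16 arrays overlapped.

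Tex101 averaged 1081 ± 207 in gd14 testes and 29.3 ± 22.3 in gd12 testes (SD, n = 3 each), a log2 change of 4.48 (SE 0.338, limma adjusted p = 7.9e-08), and at least 14.4-fold against the 40th percentile of the gd12 arrays. It was 5.02 without gd12 replicates 13 and 14. The difference between gd12 and gd11 testes, both near background, was 0.84 (adjusted p = 0.0549). Tex101 fell in gd18 testes to 539 ± 309, against 1318 ± 173 in gd16 testes (SD, n = 3 each), a log2 change of -1.39 (SE 0.338, limma adjusted p = 0.0299). That call was lost with a pseudocount of 1 (-1.44, adjusted p = 0.145), and without any 1 of the gd16 arrays or gd18 replicate 4 or 5 (adjusted p of 0.0639 to 0.182).

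Elavl2 1421882_a_at split the gd11 group. In gd11 testes it read 5869 and 3293 in replicates 16 and 17, against 362, 373 and 603 in replicates 18 to 20. In gd12 testes it read 881, 2910.2 and 2082, and in gd14 testes 1679, 1250.1 and 1294. In gd16 testes it read 686, 631 and 982, in gd18 testes 770.3, 835 and 1484, and in pnd2 testes 452, 577 and 553. The 2 high gd11 arrays were the highest of all 20, and the other 3 gd11 arrays overlapped only with pnd2 and none of the stages between. The same 2 arrays were those with all 12 neuronal genes high, and a neuronal part in this Elavl2 reading was not tested.

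With all arrays, Elavl2 1421882_a_at averaged 1958 ± 1020 in gd12 testes (SD, n = 3) and 2100 ± 2443 in gd11 testes (SD, n = 5), and the log2 change of 0.65 (SE 0.663, limma adjusted p = 0.531) was not called. Without gd11 replicates 16 and 17, all 4 kept Elavl2 probe sets were called higher in gd12 than in gd11 testes. Their log2 changes were 1.96 for 1421882_a_at, 2.07 for 1421883_at, 1.76 for 1421881_a_at and 1.08 for 1454454_at, with limma adjusted p of 0.000315, 0.000163, 4.72e-05 and 0.0121. In the same fit all 4 were called lower in pnd2 than in gd14 testes, by -1.37, -1.54, -1.07 and -1.07 (limma adjusted p = 0.00259, 0.000912, 0.00186 and 0.00668). With all arrays, weighted equally, these last differences had the same size but adjusted p of 0.118 to 0.26. With limma's array weights and all arrays, 3 of the 4 were called, 1421882_a_at at -1.34, 1421883_at at -1.48 and 1454454_at at -1.03 (adjusted p = 0.0334, 0.0295 and 0.0223). The fit holds 1 spread per probe set for all stages, gd11 included. The change in pnd2 over gd11 testes turned in sign for all 4 without replicates 16 and 17, and only that of 1421881_a_at was then called. It was 0.81 (limma adjusted p = 0.00953) without them and -0.39 (adjusted p = 0.641) with all arrays. The others were 0.26 for 1421882_a_at, 0.44 for 1421883_at and 0.37 for 1454454_at without them (adjusted p = 0.55, 0.286 and 0.315), and -1.05, -1.01 and -0.41 with all arrays (adjusted p = 0.218, 0.277 and 0.488). Elavl2 1454454_at was near background at pnd2 (mean 69.0) and read 28.5 to 61.8 in gd11 replicates 18 to 20, so its changes there have no exact size.

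The 4 kept Elavl2 probe sets agreed on the gd11 split. Replicates 16 and 17 averaged 4128 for 1421883_at, 1590 for 1421881_a_at and 264 for 1454454_at, and the highest of the other 3 gd11 arrays were 489, 183 and 61.8. The probe set that was not kept, 1433052_at, read 26.9 to 51.9 at gd11 and was near background in its mean at every stage, with no high value in replicates 16 and 17. No member other than Elavl2 was higher in replicates 16 and 17. Their mean was 329 for Dazl 1449502_at, inside the 165 to 411 of the other 3 gd11 arrays, and those of Dazl 1419542_at, Ddx4, Tex14 and Tex101 also lay inside. For Dnd1 it was 173, below the 203 to 322 of the other 3.

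**Figure D2:**
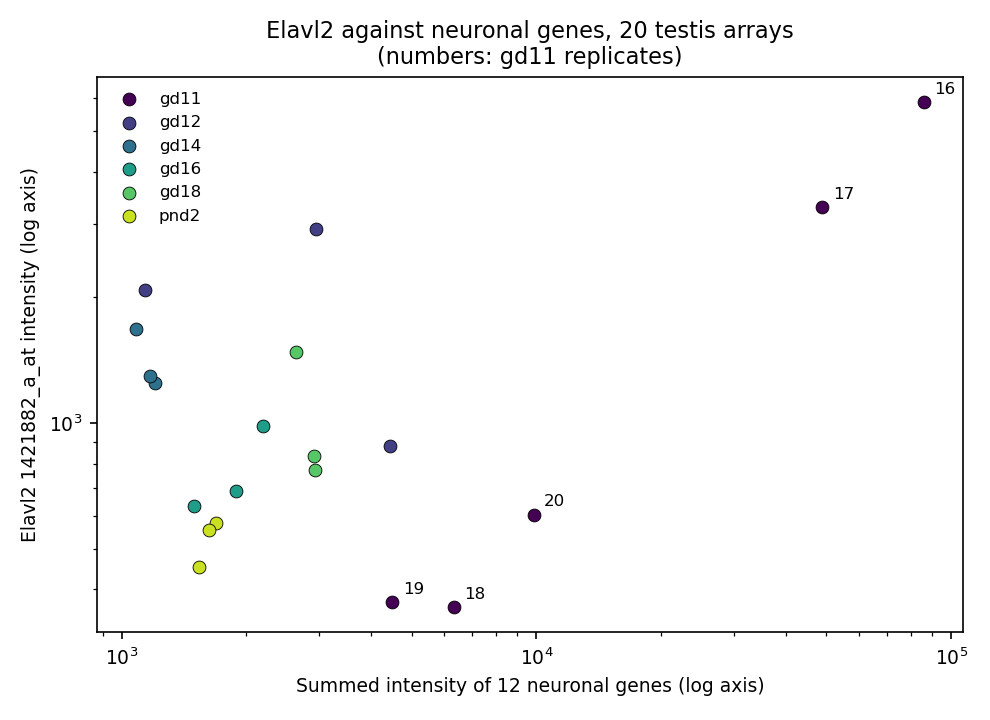
Intensity of Elavl2 1421882_a_at against the summed intensity of 12 neuronal genes in each of the 20 testis arrays (both axes log), coloured by stage, with gd11 replicates numbered. Replicates 16 and 17 sit at neuronal sums of 85850 and 48860 with Elavl2 at 5869 and 3293. The gd12 arrays reach Elavl2 values of 881 to 2910.2 at neuronal sums of 1140 to 4444.

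Read over the members together, 5 of the 10 kept probe sets were called higher in gd12 than in gd11 testes and none lower, where 20% of all probe sets were called, 12.1% higher and 7.89% lower. They were both Dazl probe sets, Ddx4, Dnd1 and Tex14, and the same 5 were called without gd12 replicates 13 and 14. Without gd11 replicates 16 and 17 the count was 9, with the 4 Elavl2 probe sets added. The share of all probe sets called in these fits is not given here. The ranges of the 2 stages did not overlap for 6 of the 10, against 20.8% of all probe sets. The median member change was 1.36, and that of all probe sets 0.0355. Between gd14 and gd12 testes, 4 of 10 were called, all higher in gd14 (Ddx4, Dnd1, Tex14 and Tex101), where 15.3% of all were called, 7.75% higher and 7.54% lower. The same 4 had ranges that did not overlap, against 35.3% of all.

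Every member call between adjacent stages after gd14 was lower, but the median member change was not below 0 throughout. It was -0.685 in gd16 over gd14, 0.263 in gd18 over gd16 and 0.0433 in pnd2 over gd18 testes. The medians of all probe sets were 0.0275, -0.0101 and -0.0535. In gd16 against gd14 testes, 3 of 10 were called, all lower (both Dazl probe sets and Tex14), where 5.95% of all were called, 2.85% higher and 3.1% lower. Leaving out single arrays moved that count between 0 and 3. In gd18 against gd16 testes, 3 of 10 were called, all lower (Dnd1, Tex14 and Tex101), where 3.07% of all were called, 0.966% higher and 2.11% lower. In pnd2 against gd18 testes none of the 10 was called by limma, also none at an unadjusted p under 0.05, where 4.9% of all were called, 1.76% higher and 3.14% lower. Ranges did not overlap for 7, 6 and 4 of the 10 in these 3 comparisons, against 31.6%, 25.5% and 29.5% of all.

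The wider comparisons share arrays with those above. In pnd2 against gd14 testes, 3 of 10 were called, all lower (Ddx4, Dnd1 and Tex14), where 26.8% of all were called, 11.7% higher and 15% lower. Ranges did not overlap for 9 of the 10, against 47.7% of all. Without gd11 replicates 16 and 17 the called count was 8. Without gd12 replicate 13 it was 5, with both Dazl probe sets added at adjusted p of 0.035 and 0.0387. For these fits too, the share of all probe sets called is not given. In pnd2 against gd11 testes, 6 of 10 were called, all higher, where 42.4% of all were called, 19.9% higher and 22.4% lower, and ranges did not overlap for 6, against 39.5% of all. Over all 6 stages, 6 of 10 passed the F-test, where 60.9% of all did, so that share was near that of the array.

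**Figure D3:**
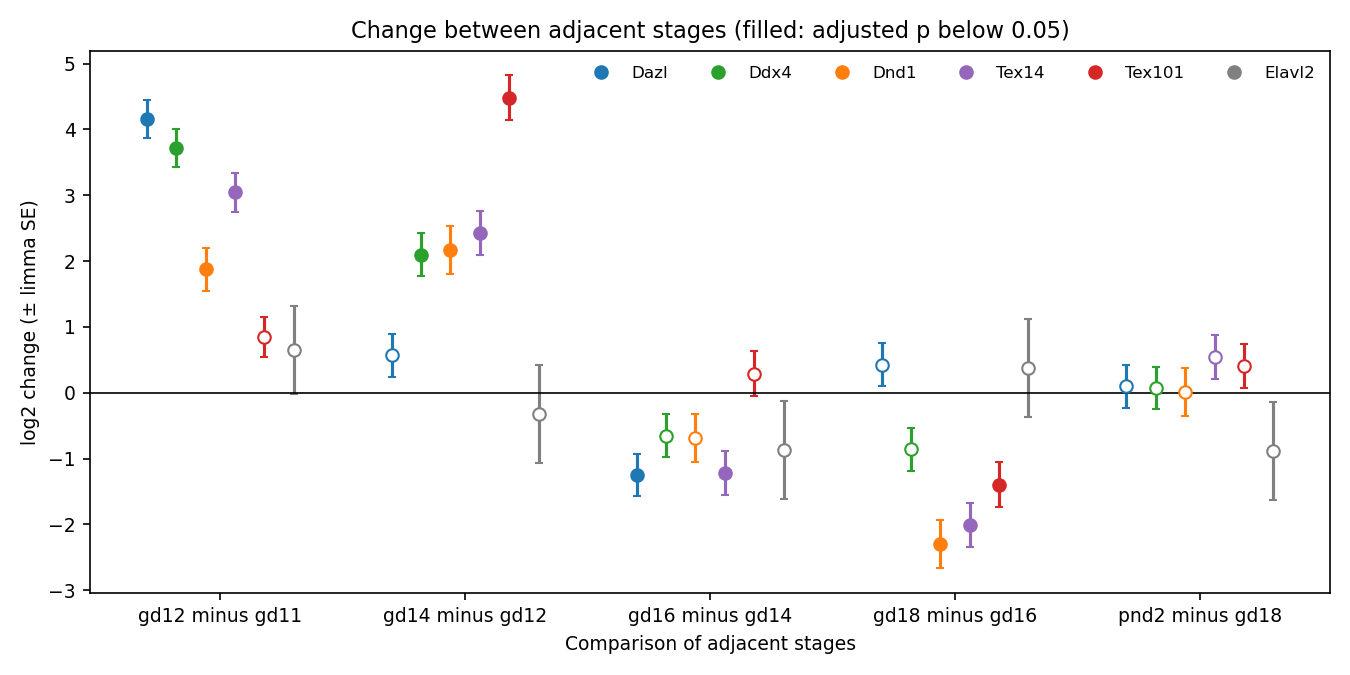
log2 change with the limma SE for 1 probe set of each gene in the 5 comparisons of adjacent stages, later minus earlier. Filled points have an adjusted p below 0.05. Changes up to gd14 are above 0 for Dazl, Ddx4, Dnd1, Tex14 and Tex101. In gd18 minus gd16, Dnd1 at -2.30 and Tex14 at -2.01 lie below Dazl at 0.42.

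The unequal course of the members can also be put within arrays, as the log2 value of each gene minus that of Dazl 1449502_at on the same array. These differences come from the same readings as the changes above and are no second source of support. Only the change of this difference between stages has a meaning, since 2 probe sets do not share a scale. For Tex14 the difference ran from -3.39 to -3.17 in gd18 arrays, against -1.44 to -0.21 in gd16 arrays. For Dnd1 it ran from -3.50 to -2.90 in gd18 arrays, against -0.93 to 0.02 in gd16 arrays. The arrays of the 2 stages did not overlap in either case, and the mean differences shifted by -2.43 for Tex14 and -2.72 for Dnd1.

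For Ddx4 the shift between gd18 and gd16 arrays was -1.28, and for Tex101 -1.82, also without overlap. Each has an exact two-sided permutation p of 0.1, the smallest that 3 arrays against 3 allow, and adjusted values over the 35 such tests run were 0.125 at the lowest, so none passed a threshold of 0.05. In 26 of the 35 the arrays of the 2 stages did not overlap. All 35 share the Dazl readings, and no such differences were computed for other probe sets. The count therefore has no background and is not a trait of the members. Between gd14 and gd12 arrays, Ddx4, Dnd1 and Tex14 shifted up relative to Dazl by 1.53, 1.60 and 1.85, and without gd12 replicates 13 and 14 by 1.58, 1.56 and 1.90. Tex101 shifted by 3.91, or 4.89 without those 2 arrays, from near-background gd12 readings. Elavl2 shifted by -0.89 between gd14 and gd12 arrays, also without overlap, or by -0.70 without those 2 arrays, and by -0.04 between gd18 and gd16 arrays, which overlapped. The spread of the Ddx4 difference over the 3 gd12 arrays was 0.0405 (SD), although Ddx4 itself read 559 to 1609 there.

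**Figure D4:**
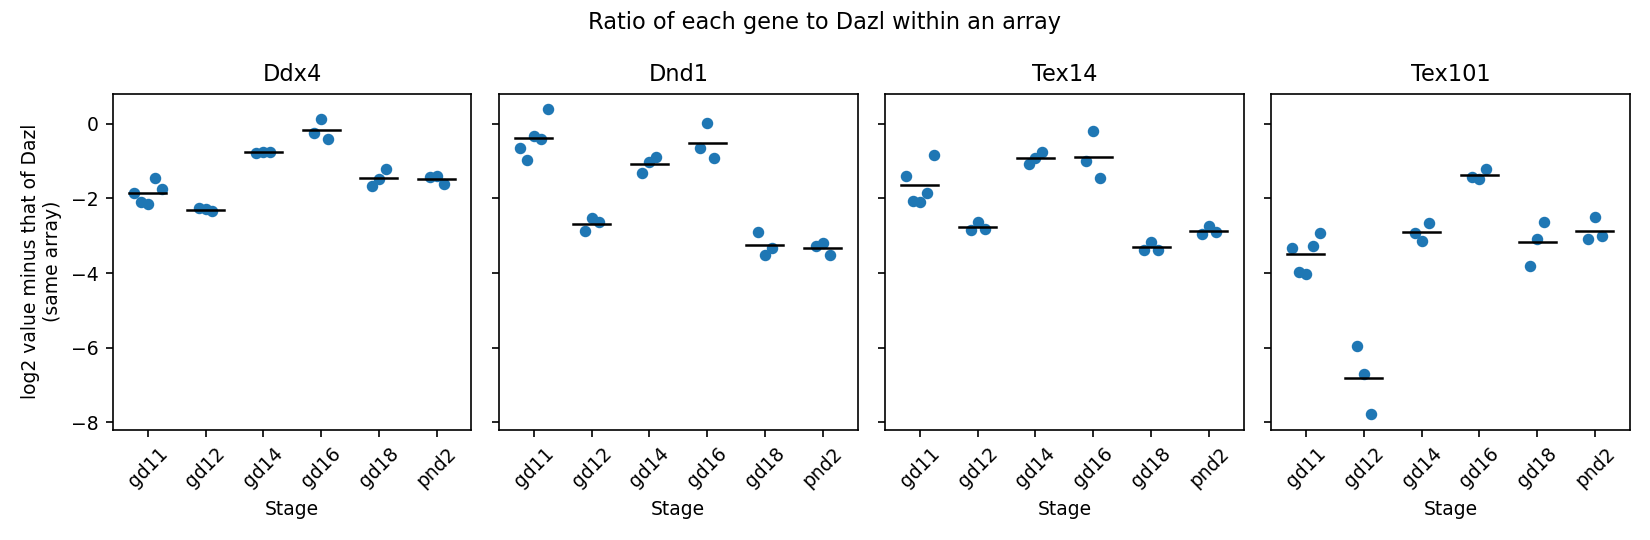
log2 value of Ddx4, Dnd1, Tex14 and Tex101 minus that of Dazl 1449502_at on the same array, by stage, with points for arrays and bars for means. For Dnd1 and Tex14 the gd18 arrays, at -3.50 to -2.90 and -3.39 to -3.17, lie below all gd16 arrays. Values of Tex101 at gd11 and gd12 rest on near-background readings.

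Against the whole-litter reference, a single array with no test, most members were high in pnd2 testes. Dazl 1449502_at averaged 4972 ± 1034 in pnd2 testes (SD, n = 3) and read 33.0 in the reference, at least 67.4-fold higher, and 1419542_at was at least 53.4-fold higher. Ddx4 was at least 24.0-fold and Tex101 at least 8.97-fold higher, since the reference was near background for both. Tex14 averaged 668 ± 178 in pnd2 testes and read 105.6 in the reference, a log2 difference of 2.40. Dnd1 averaged 476 ± 103 in pnd2 testes and read 77.4 in the reference, a difference of 2.30. Elavl2 1421882_a_at averaged 527 ± 66.0 in pnd2 testes and read 953 in the reference, a difference of -0.83. Over all probe sets the median difference was 0.182, and 5.46% were more than 4-fold higher in pnd2 testes.

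Other germ cell RNA regulators were called in both directions. Of 30 listed genes, 27 were kept, of which 8 were called higher and 4 lower in gd12 than in gd11 testes, with a median change of -0.00993 against 0.0355 for all probe sets. Together these were 44.4%, against 20% of all. Cpeb1, which binds cytoplasmic polyadenylation elements, averaged 402 ± 228 in gd12 testes (SD, n = 3) and 41.0 ± 19.3 in gd11 testes (SD, n = 5), a log2 change of 2.63 (SE 0.323, limma adjusted p = 1.67e-05). Rbm44, Rbmxl2 and Rbm46 rose by 2.49, 2.29 and 1.57 (limma adjusted p = 0.000183, 3.46e-06 and 0.000397). The genes named here are all from the 8 called higher, and none of the 4 called lower is named. Cpeb1, Rbm44 and Rbmxl2 were near background at gd11, so that gd12 testes were at least 5.24-fold, 4.96-fold and 2.80-fold higher against the 40th percentile of the gd11 arrays. Without gd12 replicates 13 and 14 the changes of Cpeb1, Rbm44, Rbmxl2 and Rbm46 were 2.86, 2.80, 2.81 and 1.64, and without gd11 replicates 16 and 17 they were 2.74, 2.27, 2.15 and 1.15, all called. Leaving out gd11 replicates 16 and 17 gave 8 and 5, leaving out gd12 replicates 13 and 14 gave 6 and 4, and leaving out all 4 gave 7 and 4.

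Between gd14 and gd12 testes, 5 of the 27 were called higher and 5 lower (37%, against 15.3% of all). The genes named for this step are all from the 5 called higher, and none of the 5 called lower is named. Adad1, an adenosine deaminase domain protein of germ cells, averaged 705 ± 105 in gd14 testes and 47.5 ± 12.9 in gd12 testes (SD, n = 3 each), a log2 change of 3.39 (SE 0.277, limma adjusted p = 2.46e-07). Adad1 was near background at gd12, and gd14 testes were at least 9.44-fold higher. Ddx25, a DEAD-box helicase related to Ddx4, rose by 2.38, and Adad2 and Rbmxl2 by 1.69 and 1.60 (limma adjusted p = 7.75e-06, 0.000428 and 0.000646). Without gd12 replicates 13 and 14 the changes of Adad1 and Ddx25 were 3.28 and 2.27 (adjusted p = 0.000183 and 0.00333), and the calls of Adad2 (1.45, adjusted p = 0.0536) and Rbmxl2 (1.09, adjusted p = 0.0933) were lost. The counts were 2 higher and 2 lower without gd12 replicates 13 and 14, and 5 and 3 without all 4 arrays.

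In gd18 against gd16 testes, 3 were called (11.1%, against 3.07% of all). They were Ddx25 (-1.44), Adad2 (-1.34) and Adad1 (-1.08), all lower, with limma adjusted p of 0.00528, 0.0125 and 0.0385. Dnd1 and Tex14 fell in that same interval. In gd16 against gd14 testes, Cpeb1 and Rbmxl2 were the 2 called (7.41%, against 5.95% of all), both lower, at -1.63 and -1.29 (limma adjusted p = 0.0113 and 0.00849). In pnd2 against gd18 testes 2 were called higher and 2 lower, in pnd2 against gd14 testes 2 and 6, and in pnd2 against gd11 testes 8 and 8. The called shares were 14.8%, 29.6% and 59.3%, against 4.9%, 26.8% and 42.4% of all.

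Transcripts reported as bound or translated under Dazl in mouse germ cells were mostly called higher at the early steps. All 8 listed genes, 1 of which is Ddx4, were kept, and 7 were called higher and none lower in gd12 than in gd11 testes, with a median change of 1.13 against 0.0355 for all probe sets. That is 87.5%, against 20% of all probe sets, and 8 of the 10 germ cell markers were also called higher. A link of these changes to Dazl was not tested. Sycp3, a synaptonemal complex protein, averaged 450 ± 308 in gd12 testes (SD, n = 3) and 56.8 ± 12.4 in gd11 testes (SD, n = 5), a log2 change of 2.29 (SE 0.337, limma adjusted p = 0.000114). It was near background at gd11, and gd12 testes were at least 5.07-fold higher. The change was 2.74 without gd12 replicates 13 and 14 and 2.38 without gd11 replicates 16 and 17. Leaving out gd11 replicates 16 and 17 gave a count of 6, leaving out gd12 replicates 13 and 14 gave 4, and leaving out all 4 gave 5. In gd14 against gd12 testes 5 were called, all higher (62.5%, against 15.3% of all). Among them were Sycp3 at 2.59 and Tex19.1 at 2.07 (limma adjusted p = 0.000146 and 0.00021). Without gd12 replicates 13 and 14 these were 2.13 and 1.72 (adjusted p = 0.000261 and 0.0176).

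In gd16 against gd14 testes 3 of these 8 were called, all lower (37.5%, against 5.95% of all). They were Sycp3, Trim71 and Hells, by -1.49, -1.22 and -0.87 (limma adjusted p = 0.0235, 0.02 and 0.00462). Hells is a chromatin remodelling helicase of dividing cells. In gd18 against gd16 testes 1 was called lower, Tdrd7 at -0.73 (limma adjusted p = 0.0369), and in pnd2 against gd18 testes 1 higher, Hells at 0.76 (limma adjusted p = 0.0143). Each was 12.5% of the list, against 3.07% and 4.9% of all. In pnd2 against gd14 testes 3 were lower and none higher, and in pnd2 against gd11 testes 7 were higher and none lower. These were 37.5% and 87.5% of the list, against 26.8% and 42.4% of all.

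A list of CCR4-NOT subunits, partners of Dnd1 and Nanos proteins, also held Tob1 and Btg3, which are not subunits, and its genes were called in both directions. Of 13 listed genes 11 were kept, with 2 higher and 1 lower in gd12 against gd11 testes, or 27.3%, where 20% of all probe sets were called. In gd14 against gd12 testes 2 were again higher and 1 lower, or 27.3%, against 15.3% of all. None was called in gd16 against gd14 testes, 1 lower in gd18 against gd16 testes (9.09%, against 3.07% of all), and none in pnd2 against gd18 testes. The scaffold-binding subunit Cnot11 averaged 3498 ± 174 in gd14 testes and 2523 ± 369 in gd12 testes (SD, n = 3 each), a log2 change of 0.48 (SE 0.118, limma adjusted p = 0.00992). In gd18 over gd16 testes its log2 change was -0.54 (limma adjusted p = 0.0175). In pnd2 against gd14 testes 3 were higher and 3 lower, with Cnot2 at -1.08 (limma adjusted p = 3.62e-05), together 54.5%, against 26.8% of all. In pnd2 against gd11 testes 2 were higher and 2 lower (36.4%, against 42.4% of all), with Tob1 among the higher at 0.80 (limma adjusted p = 0.000872). Without gd12 replicates 13 and 14 none was called in gd14 against gd12 testes, with Cnot11 at 0.29 (adjusted p = 0.338), and without gd11 replicates 16 and 17 none was higher and 2 were lower in gd12 against gd11 testes.

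The genes of the intercellular bridge and midbody, where Tex14 acts, were likewise called in both directions. All 14 listed were kept, with 3 higher and 1 lower in gd12 against gd11 testes (28.6%, against 20% of all), and 1 higher and 2 lower in gd14 against gd12 testes (21.4%, against 15.3% of all). Cep55, the midbody protein that Tex14 binds, averaged 2185 ± 200.1 in gd14 testes and 1534 ± 134 in gd12 testes (SD, n = 3 each), a log2 change of 0.50 (SE 0.134, limma adjusted p = 0.0153). In gd16 over gd14 testes its log2 change was -0.56 (limma adjusted p = 0.0178), the 1 call there (7.14%, against 5.95% of all). None was called in gd18 against gd16 or pnd2 against gd18 testes, 4 lower and none higher in pnd2 against gd14 testes (28.6%, against 26.8% of all), and 3 higher and 2 lower in pnd2 against gd11 testes (35.7%, against 42.4% of all). Leaving out gd12 replicates 13 and 14 took Cep55 to 0.36 (adjusted p = 0.344) in gd14 against gd12 testes, with 0 higher and 1 lower called. For gd12 against gd11 testes the counts were 4 higher and 0 lower without gd11 replicates 16 and 17, and 6 and 0 without all 4 arrays.

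The Elavl family has 4 genes, of which 2 were called in gd12 against gd11 testes, both lower (50%, against 20% of all). Elavl1, the widely expressed member of the family, averaged 3051 ± 293 in gd12 testes (SD, n = 3) and 3781 ± 149 in gd11 testes (SD, n = 5), a log2 change of -0.31 (SE 0.0888, limma adjusted p = 0.0181). Without gd12 replicates 13 and 14 that change was -0.19 (adjusted p = 0.402). Elavl4, a neuronal member, changed by -2.30 in gd12 against gd11 testes (SE 0.71, limma adjusted p = 0.0274), by -0.997 without gd11 replicates 16 and 17 (adjusted p = 0.148), and by -2.16 without all 4 arrays (adjusted p = 0.0141). Those 2 arrays averaged 1967 for Elavl4 and 1186 for the neuronal member Elavl3, against 201 and 67.8 in the other 3 gd11 arrays.

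By Pearson r of log2 values over the 20 testis arrays, which share stages and the arrays that stood apart, the nearest genes to each member were the following. Trap1a (r = 0.97) and Uba1y (0.963) were nearest to Dazl 1449502_at, Slc25a31 (0.98) and Gpat2 (0.976) to Ddx4, and Utp4 (0.976) and Ube2t (0.965) to Dnd1. For Tex14 they were Asz1 (0.979) and Tex30 (0.966), and for Tex101 Tktl1 (0.989) and Gtsf1 (0.982). For Elavl2 1421882_a_at the nearest were Strbp (0.898) and Rab6b (0.889), lower values than for any other member. Tex19.1 (0.973) was also among the nearest to Ddx4, and Tdrd1 (0.978) to Tex101.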

How the data were processed

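Each deposited value is the linear intensity of 1 probe set. The authors produced these intensities in GCOS, per the submitters' processing notes. For GCOS no version or algorithm, and for the probe sets no genome build, is given by the labels or headers. The mean intensity after trimming 2% at each end was 500 on all 21 arrays. Values were used as deposited, transformed to log2(intensity + 22.4), the 20th percentile of testis values, and a probe set was kept if 3 or more of the 20 testis arrays read it above their own 40th percentile. A limma 3.58.1 fit of 6 stage means (R 4.3.3, lmFit, then eBayes with trend) had 14 residual degrees of freedom with 5.6 added by the prior, and gave 7 comparisons, each adjusted by Benjamini-Hochberg over 31900 probe sets. The fit was tested on simulated data. Gene names came from the platform's table, updated through Entrez identifiers against a GRCm38.p6 gene table. No detection calls were used, so "at least" folds compare with each array's 40th percentile. Lists use 1 probe set per gene, the one with the highest mean.

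Members and gene lists were chosen with earlier results of these data known. Genes beyond the members were named as at most 4 called genes of a list per comparison, not always those with the largest change, and the nearest by correlation. In gd14 over gd12 testes, Cnot2 (0.49) and Sycp1 (2.53) were called with larger changes than Cnot11 and Tex19.1. Rbm44 was the largest call of the bridge list in gd12 over gd11 testes (2.49). No batch is named in the labels. Alternatives were the pseudocount, the normalization, the filter, 1 probe set per gene, only the 2 stages compared, no intensity trend, array weights, and arrays left out. Leaving out gd12 replicates 13 and 14, alone or with gd11 replicates 16 and 17, and the list genes and differences from Dazl without these arrays, were chosen after seeing the data.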

Additional observations from a re-analysis of the deposited data

How the results depend on the processing

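Of 2282 member values recomputed over 33 settings, 2171 kept direction and side of the threshold, 25 lost the call, 58 gained one and 28 turned in sign, 2 of them with a call and 26 with none in either fit. The 2 with a call were the change of Elavl2 1421881_a_at in pnd2 over gd11 testes, -0.39 with all arrays, and 0.81 both without gd11 replicates 16 and 17 (adjusted p = 0.00953) and without gd12 replicates 13 and 14 as well (adjusted p = 0.00268). In both of these fits 1421882_a_at, 1421883_at and 1454454_at turned to 0.26, 0.44 and 0.37, with no call. With array weights 1421881_a_at was at 0.17, and with 1 array left out it ran from -0.75 to 0.23. In gd14 over gd12 testes Elavl2 1421881_a_at was at -0.0996 without gd12 replicates 13 and 14, also with the gd11 arrays left out. With 1 array left out, that comparison ran from -0.19 to 0.33 for 1421881_a_at, from -0.81 to 0.0398 for 1421882_a_at and from -0.52 to 0.25 for 1421883_at. Likewise 1454454_at ran from -0.0135 to 0.71 in gd12 over gd11 testes and from -0.000466 to 0.37 in gd18 over gd16 testes. In pnd2 over gd18 testes Dazl 1419542_at ran from -0.0236 to 0.42, Dazl 1449502_at from -0.0127 to 0.28, Ddx4 from -0.0984 to 0.34 and Dnd1 from -0.20 to 0.18. The number of the 10 member probe sets called was 4 for gd14 against gd12 testes in every setting. For gd12 against gd11 testes it was 9 in place of 5 without gd11 replicates 16 and 17, and 9 without all 4 arrays. For gd16 against gd14 testes it was 3, 7 with only the 2 stages in the fit, 1 with no intensity trend, and 0 to 3 when 1 array was left out. For pnd2 against gd18 testes it was 0, 3 with only the 2 stages in the fit, 2 without gd11 replicates 16 and 17, and 3 without all 4 arrays. For pnd2 against gd14 testes it was 3, 10 with only the 2 stages in the fit, 8 with array weights, 8 without gd11 replicates 16 and 17, 5 without gd12 replicates 13 and 14, 9 without all 4, and 3 to 5 when 1 array was left out. For the F-test it was 6, and 10 without gd11 replicates 16 and 17 or without all 4. A fit of 2 stages has its own spread, so Elavl2 no longer carries that of gd11. The causes of the other shifts were not tested. The number called among all probe sets also changed with the setting. Its share within each setting is not given here, so these member counts cannot be set against it. The same holds for the counts of the gene lists with arrays left out.

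The total of probe sets called depended on the setting. For gd16 against gd14 testes it was 1898, and 1469 to 4088 over the other settings. For gd18 against gd16 testes it was 980, and 589 to 2429, and for pnd2 against gd18 testes 1562, and 1119 to 3248. For gd14 against gd12 testes it was 4877, and 1259 to 6536, for gd12 against gd11 testes 6371, and 2809 to 6810, and for pnd2 against gd14 testes 8539, and 4548 to 11524. For pnd2 against gd11 testes it was 13511, and 6964 to 14236. Single arrays left out gave as few as 201 calls in gd18 against gd16 testes and 605 in gd16 against gd14 testes. No paired analysis was possible because replicate numbers run on over the series and the stages share none. Near-background readings limit Tex101 up to gd12 and Ddx4 at gd11, where only bounds hold. They also limit Elavl2 1454454_at at pnd2 (mean 69.0) and in gd11 replicates 18 to 20 (28.5 to 61.8), so its changes there have no exact size.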

Other observations

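Partners of Tex101 and other Ly6-type surface proteins were called mainly from gd14 on. Of 12 listed genes, 6 were kept, and 4 were called higher and none lower in gd14 than in gd12 testes (66.7%, against 15.3% of all). Dpep3, a dipeptidase that binds Tex101, averaged 197 ± 88.0 in gd14 testes and 13.7 ± 10.7 in gd12 testes (SD, n = 3 each), a log2 change of 2.57 (SE 0.295, limma adjusted p = 1.17e-05), or 2.72 without gd12 replicates 13 and 14. It was near background at gd12, and gd14 testes were at least 2.5-fold higher against the 40th percentile of the gd12 arrays. In gd16 against gd14 testes 3 were called, all higher (50%, against 5.95% of all): Lypd4 by 1.83, Dpep3 by 1.60 and Ly6k by 1.11 (limma adjusted p = 0.00156, 0.00327 and 0.0387). Lypd4 was near background at gd14 and at pnd2, so that gd16 testes were at least 2.92-fold higher than gd14 testes, and pnd2 testes at least 2.71-fold lower than gd18 testes. Tex101 itself changed by 0.29 there (adjusted p = 0.705). Ly6e was the 1 call in gd18 against gd16 testes, higher by 0.79, and Lypd4 the 1 call in pnd2 against gd18 testes, at -2.33 (limma adjusted p = 0.00928 and 0.000243). Each was 16.7% of the list, against 3.07% and 4.9% of all. None was called in gd12 against gd11 testes, 2 were higher in pnd2 than in gd14 testes and 4 higher in pnd2 than in gd11 testes, with none lower. For pnd2 against gd14 and gd11 testes the shares were 33.3% and 66.7%, against 26.8% and 42.4% of all. Without gd12 replicates 13 and 14 the count for gd14 against gd12 testes was 2, without gd11 replicates 16 and 17 it was 6, and without all 4 arrays 3.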
